A study of Homo sapiens with 9 samples.

Results

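The genes described are 10 members of the classical cadherin family and its close relatives: CDH1, CDH2, CDH3, CDH4, CDH6, CDH7, CDH8, CDH10, CDH11 and CDH13. They were chosen by gene symbol, 1 row each, from a deposited table of 34961 human genes. All 10 passed the filter on low counts that kept 20156 genes for testing. RNA was sequenced in 9 libraries of WA09 cells, an embryonic stem cell line also called H9, on 3 days of a protocol that makes serotonin neurons. Day0 cells are labelled human embryonic stem cells, Day21 cells neural progenitor cells and Day42 cells TPH2+ serotonin neurons, with 3 libraries a day. Every library, Day0 included, carries the TPH2-EGFP knockin genotype, which places a green fluorescent reporter at the gene of neuronal tryptophan hydroxylase, and every label names the same induction of serotonin neuron differentiation as its treatment. All libraries thus come from 1 line. The labels number them as biological replicates but do not tell whether these were separate differentiations, so a p-value here measures the spread between libraries, which may be technical. Nor do they tell if, or how, TPH2+ cells were separated from the others.

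Cadherins are calcium-dependent adhesion receptors that bind cadherins on the neighbouring cell. Type I members (CDH1, CDH2, CDH3, CDH4) and type II members (CDH6, CDH7, CDH8, CDH10, CDH11) carry an extracellular chain of cadherin repeats and a cytoplasmic tail that binds catenins, which link it to actin, whereas CDH13 has no such tail and is held in the membrane by a lipid anchor. Pluripotent and epithelial cells hold together mainly through E-cadherin (CDH1), and the neural plate is known for replacing it with N-cadherin (CDH2), a change often called the cadherin switch. Type II cadherins are known for marking subdivisions of the neural tube and groups of neurons.

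The end of the coding sequence is shown because it carries the catenin-binding end of the tail, the feature that sets CDH13 apart from the other genes. The 60 coding bases before the stop codon were read from GENCODE release 29 on GRCh38, 5′ to 3′ on the coding strand. Capitals mark a match to TTNAANNNNCTNGCNGANNTGTA, in which N is any base. These letters are those shared by the 8 members closest to a stretch of CDH1, so a match in at least 8 members was fixed in advance. They were searched on the coding strand.
CDH1 (chr16:68833437-68833496, + strand): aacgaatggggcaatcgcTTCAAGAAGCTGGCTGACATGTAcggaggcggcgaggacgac
CDH2 (chr18:27952156-27952215, - strand): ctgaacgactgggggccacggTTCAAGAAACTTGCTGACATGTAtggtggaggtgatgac
CDH3 (chr16:68698338-68698397, + strand): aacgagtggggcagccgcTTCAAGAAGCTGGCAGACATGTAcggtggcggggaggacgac
CDH6 (chr5:31323246-31323305, + strand): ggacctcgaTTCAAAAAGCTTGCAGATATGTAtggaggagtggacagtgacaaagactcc
CDH10 (chr5:24487666-24487725, - strand): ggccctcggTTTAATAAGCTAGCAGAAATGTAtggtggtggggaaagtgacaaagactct
CDH8 (chr16:61653611-61653670, - strand): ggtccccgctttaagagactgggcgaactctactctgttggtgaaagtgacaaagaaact
CDH13 (chr16:83783418-83795027, + strand, with an intron inside): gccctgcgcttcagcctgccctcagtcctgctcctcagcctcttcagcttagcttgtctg
By that choice the motif is in 8 of the 10 members, all but CDH8 and CDH13, although CDH8 also has a tail. Among the last 60 bases of 19869 human coding sequences, these members included, it was in 10, or 0.0503%. The other two were CDH5 and CDH9, also classical cadherins. With whole coding sequences aligned, the 45 pairs of members were identical at 59.3 to 72.8% of the aligned bases (median 62.0%). Bases opposite a gap were left out of these values. CDH6 and CDH10 were the closest pair, and their longest shared run of identical bases was 28.

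On GRCh38, 5 members lie on chromosome 16: CDH8 (61647242 to 62036438, - strand), CDH11 (64943753 to 65126112, - strand), CDH3 (68636189 to 68700292, + strand), CDH1 (68737292 to 68835537, + strand) and CDH13 (82626965 to 83800640, + strand). CDH3 and CDH1 are neighbours, with 36999 bases between the end of CDH3 and the start of CDH1 in the deposited table. Chromosome 5 holds CDH10 (24487100 to 24644978, - strand) and CDH6 (31193686 to 31329146, + strand). Chromosome 18 holds CDH2 (27932879 to 28177946, - strand) and CDH7 (65750252 to 65880939, + strand), and CDH4 is on chromosome 20 (61252261 to 61940617, + strand). In GENCODE, each member spans at least 1 small gene model on its own strand, mostly pseudogenes and intronic RNAs, and all but CDH7 and CDH11 also span one on the other strand. The sources used here give no strand setting for the counting, so reads of such models could not be told apart from the cadherin's own, and the levels carry that uncertainty.

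Total counts were 58526466 to 66034630 per library on Day0, 63031962 to 66515692 on Day21 and 59429495 to 69658328 on Day42. The number of genes with any count was lower on Day42: it was at least 22198 in each library of the earlier days and 16077, 17101 and 10797 in Day42 replicates 1, 2 and 3. The median log2 change of all tested genes was 0.03 from Day0 to Day21, -0.54 from Day21 to Day42 and -0.57 from Day0 to Day42. Raw counts piled up at multiples of 4, so a count of 0 was taken to allow up to 12 counts in a library. Levels are given as FPKM, the deposited length- and depth-scaled values, which allow genes to be compared. Changes are log2 fold changes ± SE from edgeR's quasi-likelihood test on the raw counts. A member was said to rise or fall at a Benjamini-Hochberg adjusted p, over all tested genes, under 0.05 and a change of at least 2-fold.

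The labels were checked against marker genes. All 8 pluripotency markers exceeded 12 counts in every Day0 library, and their summed FPKM was 238 to 472 there against 0.022 to 2.5 on Day42. All 8 neural progenitor markers did so in every Day21 library, with summed FPKM of 97.9 to 122. In each Day0 library, however, 6 of the 8 already did so, with summed FPKM of 60.7 to 86.2. Between these days, edgeR called 1 of the 8 higher on Day21 (1.32% of tested genes), and the libraries of SOX2, FABP7 and PROM1 overlapped. Of 9 serotonin neuron markers, 7 or 8 exceeded 12 counts in the Day42 libraries, with summed FPKM of 644 to 702 against at most 2 before. The serotonin transporter gene SLC6A4 was at 0 in all 3 Day42 libraries. Mesenchyme markers were present on Day21 as well: 9 of 10 exceeded 12 counts in each library, with summed FPKM of 108 to 115 against 2.68 to 2.79 on Day0 and 18.3 to 53.2 on Day42. LUM, the proteoglycan lumican, alone gave 77.7 to 89.5 FPKM on Day21. These are bulk libraries, so fewer cells of a type and less RNA per cell cannot be told apart.

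With all 9 libraries, E-cadherin fell to near the limit of counting and N-cadherin rose between Day0 and Day21. N-cadherin rose again by Day42, though the call of each of its steps was lost in several alternative fits. From Day0 to Day21, CDH2 and CDH6 rose and CDH1 fell, so 2 of 10 members were called higher where 1.32% of all tested genes were, and 1 of 10 lower where 1.18% were. From Day21 to Day42, CDH2 alone rose (1 of 10, against 6.52% of tested genes) and none was called lower, where 19.7% of tested genes were. In that step 2 members had an unadjusted p under 0.05 (36.9% of tested genes), and by DESeq2 also none was called lower. Between Day0 and Day42, CDH2, CDH6 and CDH10 rose (3 of 10, against 8.82%) and CDH1 fell (1 of 10, against 23.4%). The median change of the 10 members was 2.00, 0.72 and 2.00 on the log2 scale in the 3 comparisons, beside 0.03, -0.54 and -0.57 for all genes tested. These medians were the same with CDH10, which was at 0 on Day0, set at its lower bound. The comparisons share libraries and are not independent of one another.

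**Figure D1:**
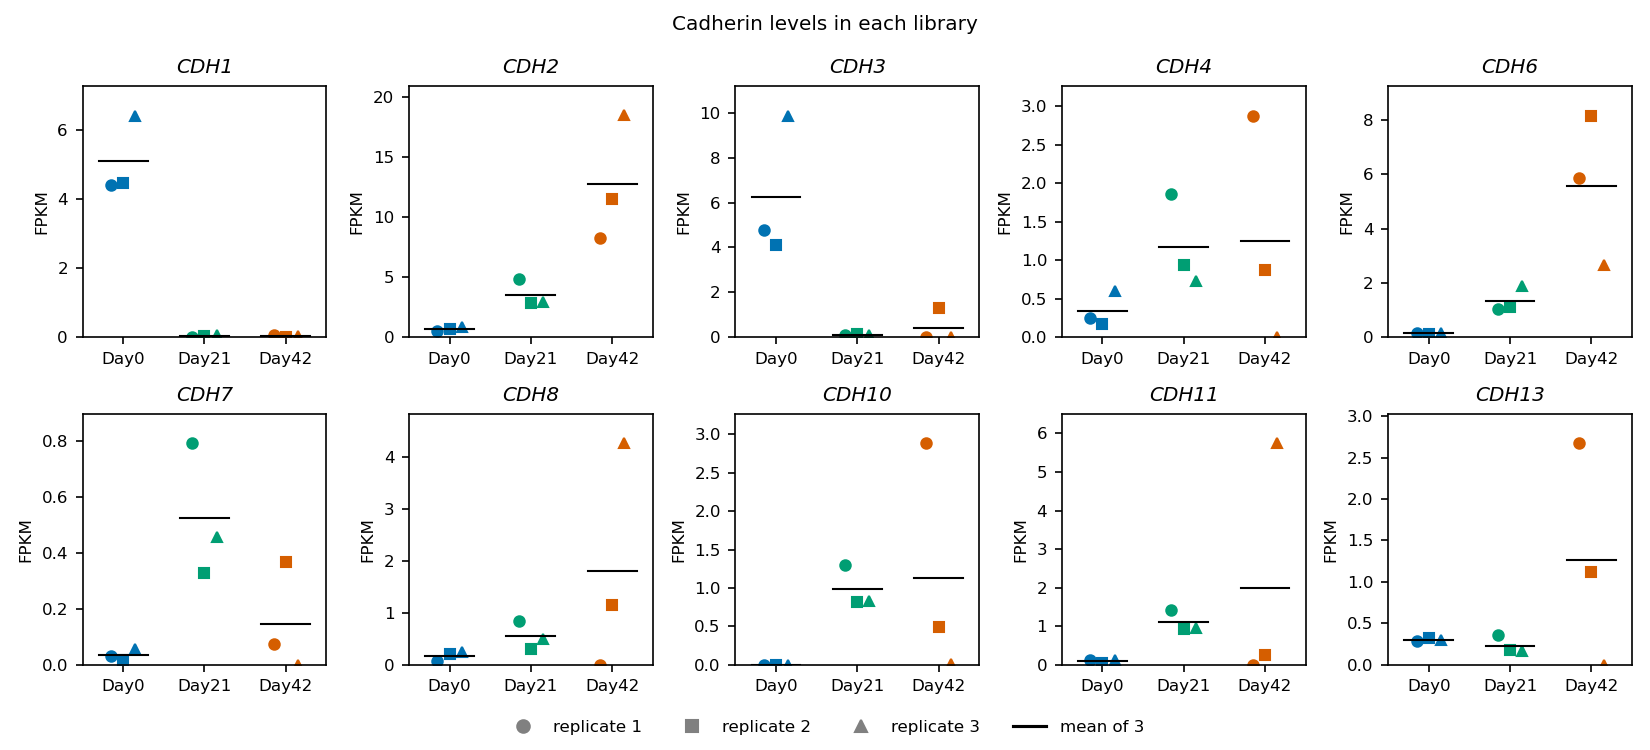
FPKM of each of the 10 cadherins (vertical axis, its own scale per panel, from 0) in the 3 libraries of Day0, Day21 and Day42 (horizontal axis). Symbols are replicates and the bar is the mean of 3. CDH1 is high on Day0 alone, CDH2 and CDH6 are higher on each later day with no overlap between days, and several others have 1 or 2 high libraries on Day42.

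The count for Day21 differed between fits, and the cause was not tested. Fitted on the 6 libraries of Day0 and Day21 alone, 7 members rose (CDH2, CDH4, CDH6, CDH7, CDH8, CDH10 and CDH11) and 2 fell (CDH1 and CDH3), against 13% and 12.6% of the genes tested in that fit. With all days but without Day42 replicate 3, 4 rose (CDH2, CDH6, CDH7 and CDH10) and CDH1 and CDH3 fell, against 6.57% and 6.69% of genes. In that fit 11.1% and 22.3% of all genes were called higher and lower between Day21 and Day42, and 14.8% and 25.9% between Day0 and Day42. By non-overlap of the libraries in TMM-scaled CPM, 7 members were higher on Day21 than on Day0 and 2 were lower, where 24.7% and 22.2% of tested genes were. CDH13 was the member whose Day0 and Day21 libraries overlapped. Between Day21 and Day42 only CDH2 was higher and CDH7 lower without overlap (11.1% and 34.7% of tested genes), and between Day0 and Day42 there were 3 higher and 2 lower members (11.4% and 34.1%). One of those 3 is CDH10, which had 2 counts in Day42 replicate 3, within the 12 counts that a Day0 value of 0 allows, so its days are not shown to be apart.

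CDH1 encodes E-cadherin, the junctional cadherin of epithelia and of pluripotent cells. Its FPKM was 4.40, 4.46 and 6.41 on Day0, then 0.0166, 0.0405 and 0.0528 on Day21 and 0.0499, 0.0120 and 0.0471 on Day42. Day0 stood wholly apart, and the later days overlapped. In raw counts the gene went from 1905, 2198 and 3136 to 9, 22 and 26 on Day21 and to 22, 6 and 23 on Day42, so 1 library of each later day lay below the 12 counts that a 0 allows. CDH1 fell by 7.05 ± 0.89 from Day0 to Day21 (edgeR adjusted p = 0.00612), about 133-fold. The same test gave -7.73 ± 0.91 from Day0 to Day42 (adjusted p = 0.000785) and -0.67 ± 0.69 from Day21 to Day42 (adjusted p = 0.562), a step in which levels this low leave little to compare. Without Day21 replicate 2 the fall to Day21 missed the threshold (adjusted p = 0.054) at a change of -7.21.

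Epithelial markers were far lower on Day21 in summed level, as CDH1 was, but less so on Day42. The summed FPKM of 8 surface and simple epithelium markers was 414 to 600 on Day0, 9.47 to 11.7 on Day21 and 45.8 to 58 on Day42. EPCAM, an epithelial adhesion molecule, had 110, 152 and 162 FPKM on Day0, 0.647, 0.489 and 0.634 on Day21, then 9.69, 14.4 and 21.2 on Day42. KRT18, a keratin of simple epithelia, had 5.87 to 6.69 FPKM on Day21 and 18.7 to 25.6 on Day42. KRT8, its partner keratin, went the other way, from 3.92, 2.5 and 2.29 FPKM on Day21 to 0.972, 0.383 and 0.0271 on Day42 (log2 change -3.29 ± 1.03, edgeR adjusted p = 0.0463), a call lost without any 1 of the Day0 or Day21 libraries or Day42 replicate 2 (adjusted p from 0.0632 to 0.107). Of the 6 markers tested, EPCAM, KRT18 and KRT19 were called higher on Day42 than on Day21 (6.52% of tested genes were) and KRT8 lower (19.7%), and the 2 days overlapped in KRT19. CDH1 stayed at or under 0.0528 FPKM in all 6 libraries of these days. The markers' part in the CDH1 result was not tested.

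CDH2 encodes N-cadherin, the main cadherin of the neural tube and of early synapses. Its FPKM was 0.554, 0.689 and 0.840 on Day0, 4.85, 2.83 and 2.94 on Day21, then 8.25, 11.5 and 18.5 on Day42. No library of a later day overlapped with an earlier one. CDH2 rose by 2.28 ± 0.40 from Day0 to Day21 (edgeR adjusted p = 0.025), by 1.24 ± 0.39 from Day21 to Day42 (adjusted p = 0.0464) and by 3.52 ± 0.42 from Day0 to Day42 (adjusted p = 0.000858), or 11.5-fold over the whole course. The call over the whole course held in all 18 alternatives, with adjusted p of at most 0.00934. The 2 partial steps were less firm: the Day21 call was lost in 8 of 18 alternatives and the Day42 call over Day21 in 12. With no filter the adjusted p was 0.0643 and 0.118 for these steps, and with the replicate block 0.134 and 0.139. The Day42 call over Day21 was also lost with only the 2 days in the fit (0.0833) and by voom (0.0703). Without any 1 of the Day0 or Day21 libraries the Day21 rise no longer passed (adjusted p from 0.0921 to 0.16, change from 2.07 to 2.37). The Day42 rise over Day21 was lost without any 1 of those 6 libraries (adjusted p from 0.0707 to 0.165), without Day42 replicate 2 (0.0506), and without Day42 replicate 3, where the change was 0.82 and so under 2-fold.

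Side by side within a library, the order of CDH1 and CDH2 turned over. CDH1 had 7.93, 6.47 and 7.62 times the FPKM of CDH2 in the Day0 libraries. On Day21, CDH2 had 291, 69.9 and 55.7 times the FPKM of CDH1, and on Day42 it had 165, 959 and 393 times. The Day21 and Day42 ratios overlapped, and both rest on a CDH1 level near the limit of counting. Over the 9 libraries, which share their day, Pearson's r of log2 CPM between the 2 genes was -0.93, given as a description.

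**Figure D2:**
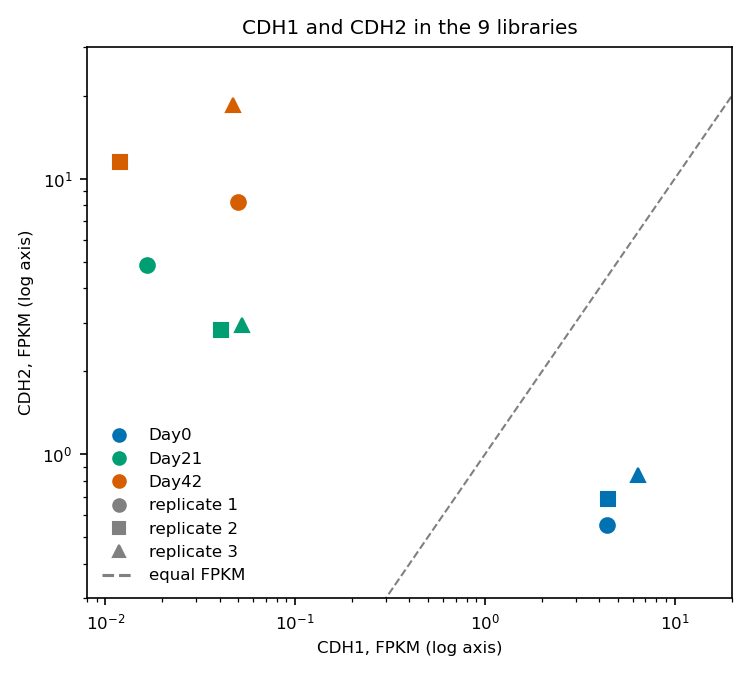
FPKM of CDH2 (vertical, log axis) against FPKM of CDH1 (horizontal, log axis) in the 9 libraries, with days in colour, replicates by symbol and a dashed line where both are equal. The 3 Day0 libraries lie below the line, with CDH1 6.47 to 7.93 times CDH2, and the 6 later libraries lie above it, at CDH1 values of at most 0.0528.

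CDH3, the P-cadherin of placenta and basal epithelia and the neighbour of CDH1, was the most abundant member on Day0 by mean FPKM. It had 4.79, 4.12 and 9.87 FPKM on Day0, 0.0924, 0.136 and 0.113 on Day21, then 0, 1.28 and 0.00409 on Day42. Every later library was below every Day0 library. Even so, the change of -5.76 ± 2.22 to Day21 (edgeR adjusted p = 0.224) and of -4.61 ± 2.10 to Day42 (adjusted p = 0.134) did not pass the test with all 9 libraries. Day42 replicate 2 had 559 raw counts while replicates 1 and 3 had 0 and 2. Without that library CDH3 passed as lower on Day21 (adjusted p = 0.0196) and on Day42 (adjusted p = 0.00126) than on Day0.

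CDH4, the R-cadherin first known from retina, rounds off the type I members. Its FPKM was 0.255, 0.171 and 0.606 on Day0, 1.86, 0.940 and 0.730 on Day21, then 2.88, 0.869 and 0 on Day42. Each Day21 library was above each Day0 library, and the Day42 libraries spanned both. None of its changes passed the test: 1.72 ± 1.74, -0.53 ± 1.69 and 1.19 ± 1.71 (edgeR adjusted p = 0.797, 0.88 and 0.665) for Day21 over Day0, Day42 over Day21 and Day42 over Day0. CDH4 passed between Day0 and Day21 in the fit on those days alone (1.70, adjusted p = 0.0359).

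**Figure D3:**
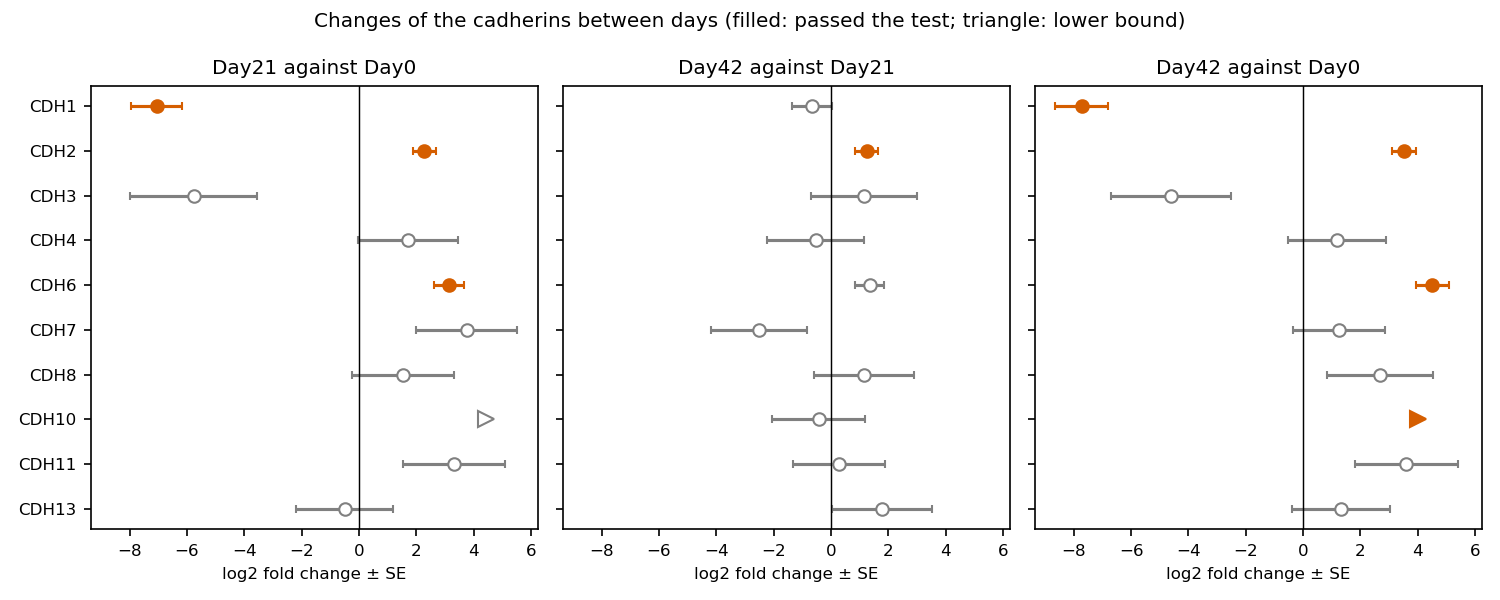
Log2 fold change ± SE (horizontal axis) of each cadherin in the 3 comparisons, from edgeR on all 9 libraries; filled marks passed the test, and triangles show CDH10 at its lower bound, since it was at 0 on Day0. CDH1 lies at -7.05 and -7.73 against Day0 and CDH2 at 2.28 and 3.52, with short error bars, while CDH3, CDH4, CDH7, CDH8, CDH11 and CDH13 have SEs of 1.61 to 2.22.

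Among type II members, CDH6 had the course closest to that of CDH2. CDH6, known as K-cadherin from fetal kidney and also found in the neural tube and neural crest, had 0.145, 0.130 and 0.166 FPKM on Day0. It had 1.04, 1.12 and 1.89 FPKM on Day21 and 5.86, 8.17 and 2.66 on Day42. The days did not overlap in FPKM, though Day21 and Day42 did in TMM-scaled CPM. CDH6 rose by 3.15 ± 0.53 from Day0 to Day21 (edgeR adjusted p = 0.0216) and by 4.51 ± 0.57 from Day0 to Day42 (adjusted p = 0.00105), or 22.8-fold. The later step of 1.35 ± 0.50 did not pass (adjusted p = 0.0806), though it did without Day42 replicate 3 (1.69, adjusted p = 0.00791). As for CDH2, the rise to Day42 held in all 18 alternatives, with adjusted p of at most 0.0125. The rise to Day21 was lost without any 1 of the Day0 or Day21 libraries (adjusted p from 0.0554 to 0.13).

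CDH10, a brain type II cadherin and the closest in sequence to CDH6 among the members, was at 0 counts in all 3 Day0 libraries. On Day21 it had 1.30, 0.814 and 0.831 FPKM, and on Day42 2.88, 0.490 and 0.00678. Day21 was even between libraries, while Day42 ranged from the highest level of the series to 2 counts. Against the limit of 12 counts per library averaged over Day0, CDH10 was at least 21.7-fold higher on Day21 and at least 16.1-fold higher on Day42. The Day42 bound rests on replicate 1, with 735 counts against 130 and 2 in the others: without it the bound was 3.42-fold, while leaving out 1 Day21 library moved that day's bound to between 19.7-fold and 22.8-fold. Day42 replicate 3, at 2 counts, was not above what a 0 on Day0 allows. The Day42 difference passed (edgeR adjusted p = 0.0214) and the Day21 difference did not (adjusted p = 0.0687). Without any 1 Day0 library the Day42 call was lost (adjusted p from 0.0525 to 0.0551), and without Day42 replicate 3 the Day21 difference passed (adjusted p = 0.00596). Between Day21 and Day42 the change was -0.43 ± 1.62 (adjusted p = 0.901).

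CDH7, known from neural crest and hindbrain, was the member with its highest mean FPKM on Day21. In TMM-scaled CPM, CDH4 (12 on Day21 against 8.29 on Day42) and CDH10 (4.93 against 3.66) also had theirs on that day. The FPKM of CDH7 was 0.0335, 0.0186 and 0.0559 on Day0, 0.792, 0.330 and 0.459 on Day21, then 0.0751, 0.368 and 0 on Day42. Day21 was above Day0 in every library and overlapped with Day42 in FPKM, though not in TMM-scaled CPM. Neither the change of 3.76 ± 1.77 to Day21 (edgeR adjusted p = 0.34) nor that of -2.50 ± 1.67 from Day21 to Day42 (adjusted p = 0.339) passed, and Day42 over Day0 was 1.26 ± 1.61 (adjusted p = 0.619). CDH7 passed as higher on Day21 than on Day0 without Day42 replicate 3 (3.75, adjusted p = 0.0164).

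CDH8 and CDH11 were highest in the same Day42 library. CDH8, known from cortex and striatum, had 0.0844, 0.210 and 0.245 FPKM on Day0, 0.842, 0.312 and 0.491 on Day21, then 0, 1.16 and 4.27 on Day42. CDH11, the OB-cadherin of osteoblasts and mesenchyme, had 0.131, 0.0463 and 0.133 on Day0, 1.43, 0.929 and 0.958 on Day21, then 0.00431, 0.256 and 5.74 on Day42. In both genes Day21 was wholly above Day0, and Day42 replicate 1 was below every Day0 library while replicate 3 was the highest of all 9.

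Neither gene passed the test in any comparison with all libraries. The fitted value of CDH8 was 1.53 ± 1.78 (edgeR adjusted p = 0.848) for Day21 over Day0, 1.15 ± 1.76 (adjusted p = 0.72) for Day42 over Day21 and 2.68 ± 1.85 (adjusted p = 0.325) for Day42 over Day0. The fitted values of CDH11 were 3.32 ± 1.78, 0.28 ± 1.62 and 3.60 ± 1.80 (adjusted p = 0.422, 0.943 and 0.169). Day42 replicate 3 set the sign of the CDH11 value: without it, Day42 lay 3.78 below Day21 and 0.47 below Day0 on the log2 scale. Without Day42 replicate 1 instead, CDH8 and CDH11 passed as higher on Day42 than on Day0 (adjusted p = 0.0173 and 0.0295).

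Most mesenchyme markers were higher, with CDH11, on Day21 than on Day0, and on Day42 they differed from one another. By non-overlap of the libraries, 8 of 10 were higher on Day21 (24.7% of tested genes) and 2 were lower (22.2%). The lower ones were PDGFRA and POSTN, the latter with at most 5 raw counts on Day21. The summed FPKM of the 10 markers was about level across the Day21 libraries (108 to 115), where CDH11 was at 0.929 to 1.43. Most of that sum was LUM, at 77.7 to 89.5. On Day42 it was 27.2, 53.2 and 18.3 in replicates 1, 2 and 3, so the library with the most CDH11 had the lowest sum. That order was set by LUM, at 14.8, 45.2 and 0 FPKM. COL3A1, a fibrillar collagen, had 8.67, 3.70 and 14.3 FPKM and DCN, the proteoglycan decorin, 2.20, 2.85 and 3.06, so both were highest in replicate 3, as CDH11 was. PRRX1, a mesenchyme transcription factor, was at 0 in all 3 Day42 libraries. Of the 10 markers, COL3A1 and DCN were called higher on Day21 than on Day0 (2 of 10, against 1.32% of tested genes). COL1A1, PRRX1 and PDGFRA were called lower on Day42 than on Day21 (3 of 10, against 19.7%). The part of mesenchyme cells in the Day21 values of CDH11, and in those of the other members that were higher on that day, was not tested.

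CDH13, the T-cadherin that lacks a tail and is known as a receptor for adiponectin, had the flattest course between Day0 and Day21. It had 0.289, 0.324 and 0.306 FPKM on Day0 and 0.356, 0.183 and 0.162 on Day21. Day42 gave 2.67, 1.12 and 0, so 2 libraries were above and 1 below all the others. The changes were -0.49 ± 1.69, 1.79 ± 1.74 and 1.31 ± 1.71 (edgeR adjusted p = 0.99, 0.533 and 0.629). Without Day42 replicate 3, in which it had no count, CDH13 passed as higher on Day42 than on Day21 (2.39, adjusted p = 0.00966).

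Within Day42, the members that were detected differed between libraries. Day42 replicate 3, the library with the fewest genes detected, had no count of CDH4, CDH7 or CDH13 and 2 counts each of CDH3 and CDH10, but the highest CDH2, CDH8 and CDH11. Day42 replicate 1 had no count of CDH3 or CDH8 and the highest CDH4, CDH10 and CDH13 of the 9 libraries. The number of members above 12 counts was 9 in each Day0 library, 9 or 10 in the Day21 libraries, and 7, 9 and 5 in Day42 replicates 1, 2 and 3. The part of the number of genes detected in this pattern was not tested. CDH2 and CDH6 were the members with more than 12 counts in all 9 libraries.

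CDH1 and CDH3 made up most of the cadherin transcripts on Day0, CDH2 led a wider mix on Day21, then CDH2 with CDH6 made up most on Day42. Of the summed FPKM of the 10 members, CDH3 and CDH1 took 46.1 ± 6.35% and 39.8 ± 4.89% on Day0 (SD, n = 3), and CDH2 took 5.49 ± 1.16%. On Day21, CDH2 took 36.6 ± 2.29%, CDH6 14.9 ± 6.83%, CDH4 11.9 ± 3.19%, CDH11 11.6 ± 0.553% and CDH10 10.2 ± 0.53%, while CDH1 took 0.425 ± 0.256%. These shares depend on scaling by gene length: as shares of the members' counts, CDH10 took 3.86% on Day21, CDH11 15.9%, CDH6 19.1% and CDH2 32.5%. On Day42, CDH2 took 47.1 ± 11.5% and CDH6 22.3 ± 12.4%, and the mean share of each other member was at most 6.47%. The shares of CDH4, CDH8, CDH10, CDH11 and CDH13 on Day42 reached from 0.0217% or less to between 11.8% and 18.4%. The sum itself was 10.2 to 18.6 FPKM on Day0, 7.63 to 12.6 on Day21 and 22.7 to 31.3 on Day42, so Day42 was above both earlier days in every library.

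**Figure D4:**
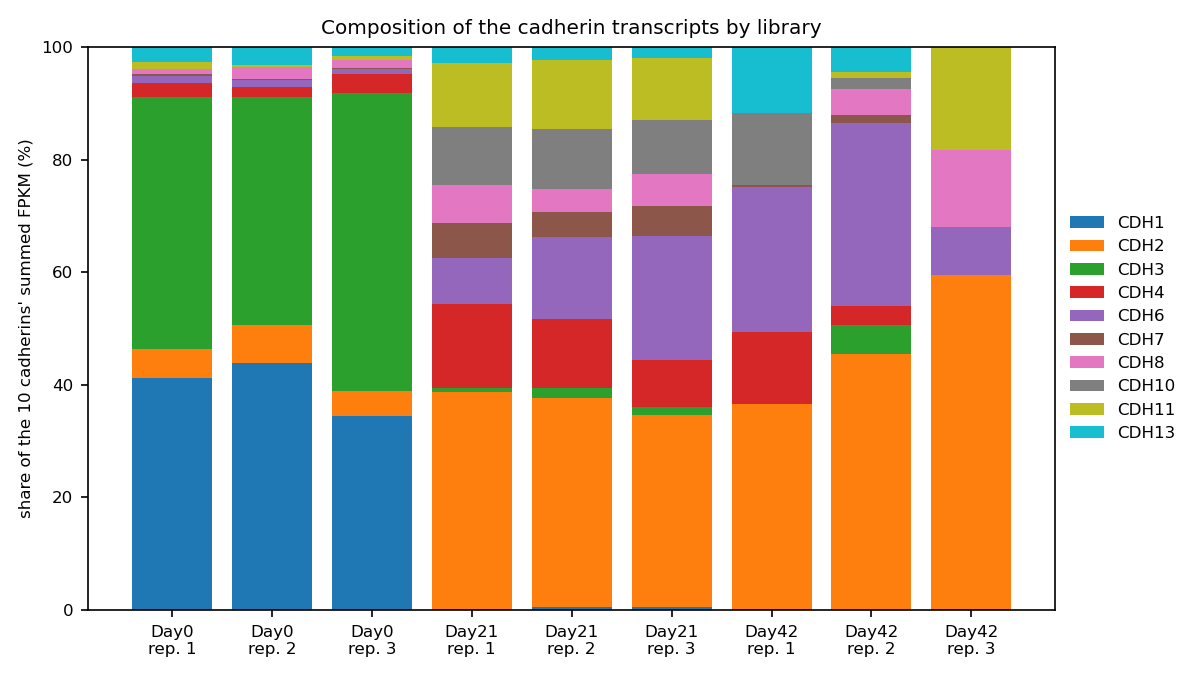
Share of each cadherin in the summed FPKM of the 10 members (vertical axis, 0 to 100%) in each library (horizontal axis, 3 per day). CDH1 and CDH3 fill most of the Day0 bars, the Day21 bars are spread over more genes with CDH2 at 34.1 to 38.6%, and the Day42 bars are led by CDH2 at 36.4 to 59.3% with a different second gene in replicate 3.

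Ordered by mean FPKM, Day0 ran CDH3 (6.26 ± 3.14, SD, n = 3), CDH1 (5.09 ± 1.14), CDH2 (0.695 ± 0.143), CDH4 (0.344 ± 0.231) and CDH13 (0.306 ± 0.0174), with the rest at 0.18 or less. CDH3 and CDH1 overlapped, as did CDH4 and CDH13, and the gap from CDH1 to CDH2 lay outside the spread of both. On Day21 the order was CDH2 (3.54 ± 1.14), CDH6 (1.35 ± 0.471), CDH4 (1.18 ± 0.601), CDH11 (1.11 ± 0.282) and CDH10 (0.98 ± 0.273), where the genes after CDH2 overlapped with one another. On Day42, CDH2 (12.8 ± 5.26) was followed by CDH6 (5.56 ± 2.77), CDH11 (2.00 ± 3.24) and CDH8 (1.81 ± 2.21), with CDH6 of replicate 2 just under the lowest CDH2 value.

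Genes with the most similar course to each member were named by Pearson's r of log2 CPM over the 9 libraries, among 12601 tested protein-coding genes. These values are descriptions. The libraries share their days and their depth, so any gene that changes between days scores high. For CDH1 they were FLT1, a VEGF receptor (r = 0.994), KIAA0040 (0.991) and POU5F1, the pluripotency factor OCT4 (0.989). CDH2 was closest to HP1BP3, CORO2B and KIF1B (0.992 to 0.993), and CDH6 to CADM1, an adhesion molecule of the immunoglobulin family, ARID5B and FLRT3 (0.981 to 0.984). CDH10 was closest to ZEB1 (0.988), PAPPA and PRKCE, and CDH3 to UGT3A2 (0.987), LRRC2 and MLXIPL. For CDH11 the best r was 0.96 (PBX4), the lowest best value of the 10.

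Among the members themselves, r was 0.90 for CDH2 with CDH6, -0.94 for CDH1 with CDH6 and 0.77 for the neighbours CDH1 and CDH3. CDH4 and CDH13 had an r of 0.90 and CDH8 and CDH11 one of 0.88, both given as descriptions. On Day42, CDH4 and CDH13 were both highest in replicate 1 and both at 0 in replicate 3, and CDH8 and CDH11 were both highest in replicate 3 and lowest in replicate 1, with 0 and 4 counts there. CDH6 and CDH10, the closest pair in sequence, had an r of 0.76.

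A further 9 classical cadherins were looked at, of which 7 passed the filter. None was called between Day0 and Day21 in either direction by edgeR, and 0 had an unadjusted p under 0.05, where 16.9% of all tested genes had. With only the 2 days in the fit, 1 of 6 tested was called higher, where 13% of genes were, and without Day42 replicate 3, 1 of 8 (6.57%). CDH9, a type II cadherin of neurons that shares the tail motif printed above, had 0.105, 0.122 and 0.1 FPKM on Day0, 0.0112, 0 and 0.0237 on Day21, then 2.18, 0.845 and 15.1 on Day42. Its rise was 8.28 ± 1.81 between Day21 and Day42 (edgeR adjusted p = 0.0109) and 5.09 ± 1.56 between Day0 and Day42 (adjusted p = 0.0363). Without Day42 replicate 3 the change from Day0 was 3.04 and did not pass (adjusted p = 0.0636). In that library CDH9 had 15.1 FPKM beside 18.5 of CDH2. CDH22 was the other called gene, lower on Day42 than on Day21, with raw counts of 19, 11 and 18 on Day21 and 0 on Day42. Against the 12 counts that a 0 allows, it was at least 1.83-fold lower, a bound under the 2-fold of the call. Leaving out Day42 replicate 3, 2 of these cadherins rose (11.1% of genes) and none fell (22.3%) between Day21 and Day42. CDH12 had 4571 raw counts in Day42 replicate 3 and at most 13 elsewhere.

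Among catenins, the proteins that bind the cadherin tail or link it to actin, few were called. Of 9 tested, none was called between Day0 and Day21, where 1.32% of tested genes were called higher and 1.18% lower. Of the 9, 2 had an unadjusted p under 0.05 (16.9% of tested genes), and the list's median change was -0.52. From Day21 to Day42, 1 rose and none fell (median 0.14), where 6.52% and 19.7% of tested genes did, and from Day0 to Day42, 2 rose and none fell (median -0.37), where 8.82% and 23.4% did. Between Day0 and Day21, 2 catenins rose both without Day42 replicate 3 (6.57% of genes) and with only the 2 days in the fit (13%). Without Day42 replicate 3, 2 rose and 1 fell between Day0 and Day42, where 14.8% and 25.9% of genes did. The called genes with all libraries were the neural forms. CTNNA2, the neuronal alpha-catenin, had 0.457, 0.324 and 0.456 FPKM on Day0, 1.26, 0.868 and 1.11 on Day21, then 14.3, 14.6 and 8.81 on Day42. Its rise was 2.89 ± 0.39 between Day21 and Day42 (edgeR adjusted p = 0.00189) and 4.21 ± 0.41 between Day0 and Day42 (adjusted p = 0.000352), and both calls held in all 18 alternatives.

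CTNND2, the neural delta-catenin, had 0.0682, 0.0943 and 0.256 FPKM on Day0, 0.754, 0.459 and 0.470 on Day21, then 1.9, 2.28 and 11 on Day42. It rose by 4.55 ± 0.95 from Day0 to Day42 (edgeR adjusted p = 0.00742), while the step from Day21 was 2.58 ± 0.87 (adjusted p = 0.0589). CTNNA1, the alpha-catenin of most tissues, stayed at 7.05 to 20.4 FPKM across the 9 libraries with a log2 value of -0.48 ± 0.35 for Day21 over Day0 (adjusted p = 0.625). CTNNB1, beta-catenin, which binds the cadherin tail directly, was uneven within every day, from 4.82 to 37.2 FPKM on Day0, 0.788 to 11.3 on Day21 and 0.202 to 20.8 on Day42, and no change of it passed. Its lowest value, 0.202, was in Day42 replicate 2, in which CDH2 had 11.5 FPKM.

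**Figure D5:**
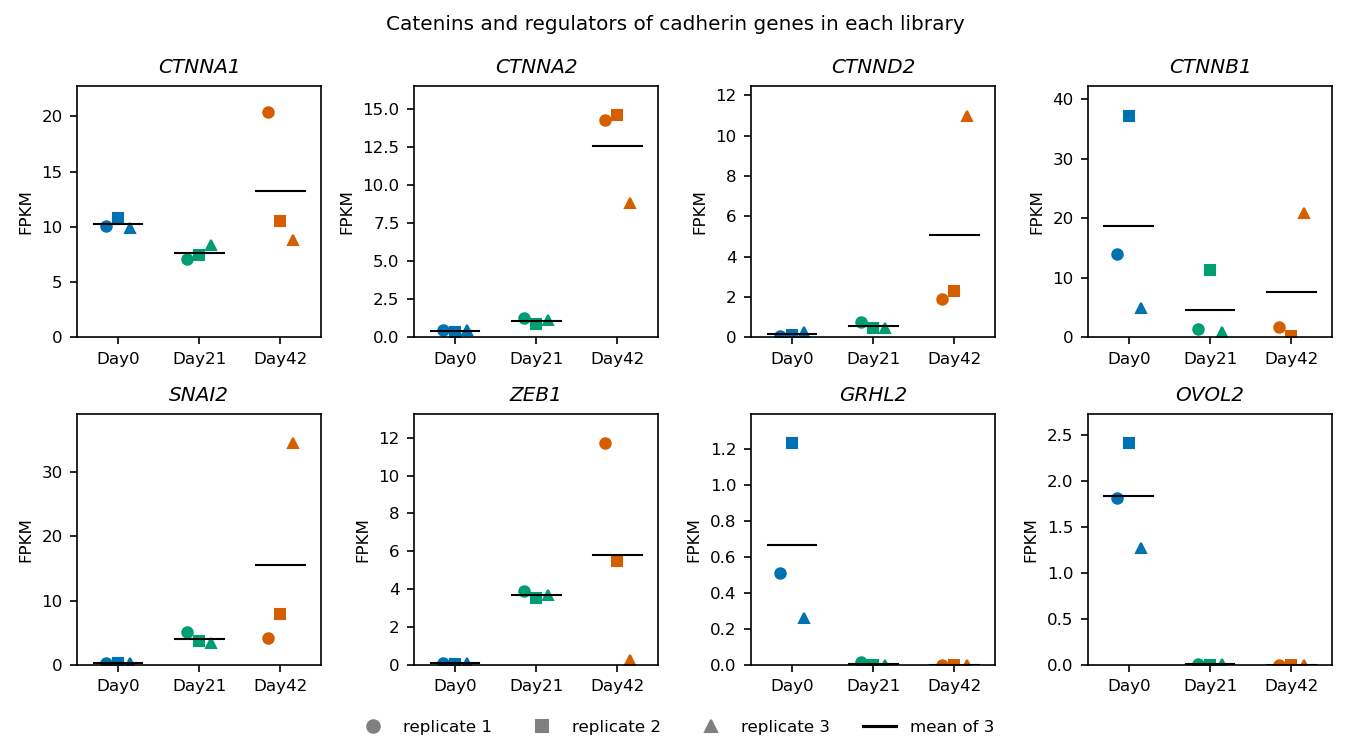
FPKM of 4 catenins (upper row) and 4 regulators of cadherin genes (lower row) in each library (vertical axes from 0, own scale per panel), by day, with replicates by symbol and the mean of 3 as a bar. CTNNA2 is at 8.81 to 14.6 on Day42 and at most 1.26 before, CTNNB1 is scattered within each day, SNAI2 and ZEB1 are higher on Day21 than on Day0, and GRHL2 and OVOL2 are near or at 0 after Day0.

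Regulators of cadherin genes showed both directions. The list of 17 holds zinc-finger and bHLH factors known to repress CDH1, and the grainyhead, OVOL and ESRP genes known to maintain epithelial expression. KLF4 is also in the list and is counted in neither of these groups. None was called between Day0 and Day21, where 1.32% of tested genes were called higher and 1.18% lower. By unadjusted edgeR p under 0.05 there were 9 (16.9% of tested genes), and the median change was -0.37. With only the 2 days in the fit, 4 rose and 7 fell, where 13% and 12.6% of genes did, and without Day42 replicate 3, 3 rose and 4 fell, where 6.57% and 6.69% did. From Day21 to Day42, 5 were called lower (SNAI1, SNAI3, TWIST2, TCF4 and GRHL3) and none higher (median -1.69), where 19.7% and 6.52% of tested genes were. SNAI3 was at 0 on Day42 and, against the 12 counts that a 0 allows, at least 1.21-fold lower, a bound under the 2-fold of the call. Between Day0 and Day42, SNAI2, ZEB1 and ZEB2 rose and 9 fell (median -1.41), where 8.82% and 23.4% of tested genes did.

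Of the repressors that rose, SNAI2 (Slug) had 0.304, 0.339 and 0.285 FPKM on Day0, 5.04, 3.73 and 3.35 on Day21, then 4.15, 7.88 and 34.4 on Day42. Day0 stood apart from both later days. SNAI2 rose by 4.95 ± 0.88 from Day0 to Day42 (edgeR adjusted p = 0.0038), while the change to Day21, 3.61 ± 0.83, missed the threshold (adjusted p = 0.0514). ZEB1 had 0.0905, 0.0561 and 0.0972 FPKM on Day0, 3.88, 3.55 and 3.69 on Day21, then 11.7, 5.50 and 0.275 on Day42. It rose by 5.42 ± 1.15 from Day0 to Day42 (adjusted p = 0.0082), and its change to Day21 was 5.43 ± 1.16 (adjusted p = 0.0511). In Day42 replicate 3, where ZEB1 was low, CDH1 was at 0.0471 FPKM, close to the 0.0499 of replicate 1, where ZEB1 was highest. These CDH1 values are 23 and 22 raw counts, near the 12 that a 0 allows. The part of ZEB1 in the CDH1 level was not tested.

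Other repressors went down. SNAI1 (Snail) was at 0 in all 3 Day42 libraries and at least 11.2-fold lower than on Day21 (edgeR adjusted p = 0.00577). TWIST2 had 1.98, 2.19 and 2.42 FPKM on Day0 and 0.712, 0.756 and 0.670 on Day21, then was also at 0 on Day42, at least 12.9-fold lower than on Day21 (adjusted p = 0.00212) and at least 40.7-fold lower than on Day0 (adjusted p = 0.00114). Among the epithelial activators, GRHL2 had 0.511, 1.23 and 0.260 FPKM on Day0, 8 raw counts in Day21 replicate 1 and none in the other later libraries. OVOL2 had 1.82, 2.41 and 1.27 FPKM on Day0 and at most 0.0152 afterwards. Both were at 0 on Day42, at least 41-fold lower than on Day0 for GRHL2 (adjusted p = 0.0144) and at least 40.9-fold for OVOL2 (adjusted p = 0.00418). Their changes to Day21, -7.16 ± 2.09 and -7.65 ± 1.52, did not pass (adjusted p = 0.133 and 0.0514).

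With all 9 libraries, the genes called in the remaining junction lists were all higher on Day42. Of 14 tested nectin, afadin and junction scaffold genes, 2 rose from Day21 to Day42 (6.52% of tested genes did) and none fell (19.7%). These were LIN7A and LIN7C, adaptors that bind cell polarity and synaptic proteins, at 1.64 ± 0.50 and 2.34 ± 0.56 (edgeR adjusted p = 0.0414 and 0.0162). The LIN7A call was lost in 11 of 18 alternatives (adjusted p up to 0.157) and the LIN7C call in 4 (up to 0.0642). None of that list was called against Day0 on either later day, where 3 had an unadjusted p under 0.05 each time (16.9% of all tested genes on Day21 and 41.8% on Day42), but without Day42 replicate 3 the counts were 1 higher and 2 lower on Day21 (6.57% and 6.69% of genes) and 3 higher on Day42 (14.8%). With only the 2 days in the fit, 1 was higher and 4 were lower on Day21 than on Day0 (13% and 12.6%). Of 12 genes for cadherin processing and turnover, none was called between Day0 and Day21 with all 9 libraries, and 0 had an unadjusted p under 0.05, but with only the 2 days in the fit 2 were called higher (13% of genes). Of the 12, 2 were called higher on Day42 than on Day21 (6.52% of tested genes) and 2 higher than on Day0 (8.82%). None was called lower, where 19.7% and 23.4% of tested genes were. CLTC, the clathrin heavy chain of endocytosis, was among those higher on Day42, by 2.52 ± 0.42 than on Day21 (edgeR adjusted p = 0.00372) and by 2.05 ± 0.41 than on Day0 (adjusted p = 0.00631).

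More distant cadherins were mostly low. Only 2 of 7 desmosomal cadherins passed the filter, DSG2 and DSC2, and neither was called in any comparison with all 9 libraries. In each comparison 0 had an unadjusted p under 0.05, where 16.9 to 41.8% of tested genes had. With only the 2 days in the fit, both were called lower on Day21 than on Day0, where 12.6% of genes were. In the fit without Day42 replicate 3, 4 passed the filter and 1 fell between Day0 and Day42 (25.9% of genes). DSG2 had 2.55, 2.18 and 2.78 FPKM on Day0, 0.806, 0.613 and 0.553 on Day21, then 0.0180, 1.68 and 0.00794 on Day42, so like CDH3 it was lower in every later library than on Day0 and was least low in Day42 replicate 2. Of 16 tested large, seven-pass and other distant cadherins, CLSTN2, a calsyntenin of synapses, was the one gene called with all 9 libraries: it rose by 6.99 ± 1.69 from Day0 to Day42 (edgeR adjusted p = 0.0139). By unadjusted p under 0.05, there was 1 of the 16 between Day0 and Day21 (16.9% of tested genes). There were 3 between Day21 and Day42 (36.9%) and 3 between Day0 and Day42 (41.8%). With only the 2 days in the fit, 2 of 15 rose and 4 fell between Day0 and Day21 (13% and 12.6% of genes). Without Day42 replicate 3, 4 of the 16 rose and 2 fell between Day0 and Day42 (14.8% and 25.9%).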

How the data were processed

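The members, gene lists and marker lists were chosen with earlier results of these data known. Per the labels' protocols, about 10 ng of Trizol-extracted total RNA went into each library with a NEBNext kit for low input. Per the submitters' processing notes, cutadapt 1.9, FastQC and the build GRCh38 were used. The aligner, counter, strand setting and gene annotation are not given in sources used here. The deposited table holds raw counts per gene, per the file headers, and FPKM values that the authors computed; 0 columns were left unmatched to a library.

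Counts were filtered with filterByExpr, scaled by TMM and fitted with edgeR 4.0.16 in R 4.3.3 (quasi-likelihood, 1 mean per day, all 9 libraries, 6 residual degrees of freedom, prior 2.42). Log2 CPM used a prior count of 2. The script was tested on simulated data. Folds against a day at 0 were computed against the mean of 12 counts per library, or 0.227 CPM on Day0 and 0.146 on Day42; such limits cover counting error only. Named genes are the members, up to 3 called genes per list and comparison with the largest change (otherwise the 2 most expressed), and the 3 most similar genes per member; some genes that this rule names are not reported here. Alternatives, 18 per change, were other scaling, filters and tools (limma 3.58.1, DESeq2 1.42.0), the days compared alone, the replicate number as a block and leaving out each library.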

Additional observations from a re-analysis of the deposited data

How the results depend on the processing

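Of 482 values of the members under alternatives, 401 kept their direction and side of the threshold, 34 no longer passed, 32 newly passed and 15 changed sign; of 571 values of other named genes, 481 kept both, 37 no longer passed, 53 newly passed and 0 changed sign. Where a count or call differed, the cause was not tested, beyond the smaller number of genes or libraries in some fits.

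The count of members higher on Day21 than on Day0, 2 with all libraries, was 1 with no filter, 3 by DESeq2 (CDH10 added), 7 with only the 2 days, 1 by limma on log2(FPKM + 1), 6 by voom with sample quality weights and 0 to 4 with 1 library left out. Of all tested genes, 266 of 20156 were higher with all libraries, 202 of 34961 with no filter, 1158 of 22573 by DESeq2 and 2550 of 19541 with only the 2 days. By limma they were 616 of 10619, by voom 3734 of 20156 and with 1 library left out 91 to 1434. The count lower on Day21, 1 with all libraries, was 2 by DESeq2, with only the 2 days, by limma with a pseudocount of 1 or 0.1 and by voom, and 0 to 2 with 1 library left out. Of all tested genes, 238 of 20156 were lower with all libraries, 1290 of 22573 by DESeq2 and 2459 of 19541 with only the 2 days. By limma they were 700 and 651 of 10619, by voom 3191 of 20156 and with 1 library left out 42 to 1460. For Day42 over Day21, the count higher was 0 with no filter or only the 2 days and 2 by limma with either pseudocount, and 0 to 2 with 1 library left out. Of all tested genes, 901 of 34961, 1030 of 17731, 2110 and 2164 of 10619, and 621 to 2416 were higher in these fits. The count lower was 1 by voom (2928 of 20156 genes) and 0 to 1 with 1 library left out (2680 to 5046 genes). For Day42 over Day0, the count higher, 3 with all libraries, was 2 with only the 2 days, with an FPKM minimum, by limma with either pseudocount and with the replicate block, and 2 to 5 with 1 library left out (2 without any 1 Day0 library, 5 without Day42 replicate 1). Of all tested genes, 1204 of 17486, 1761 of 10619, 2338 and 2407 of 10619, 1051 of 20156 and 1072 to 3220 were higher in these fits, against 1778 of 20156 with all libraries. The count lower was 2 by DESeq2, by limma with either pseudocount and by voom, and 1 to 2 with 1 library left out. Of all tested genes, 6044 of 23250, 2079 and 2178 of 10619, 3762 of 20156 and 3545 to 5664 were lower in these fits, against 4721 of 20156.

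Signs changed as follows. For Day42 against Day21, CDH3 was -2.98 by voom and -1.67 with the replicate block, CDH8 was -5.05 by voom, and CDH11 was -5.57 by voom (adjusted p = 0.0246) and -1.37 with the block. With 1 library left out, CDH3 ranged from -6.06 (without Day42 replicate 2, adjusted p = 0.00656) to 1.75, CDH4 from -2.11 to 0.06, CDH8 from -0.59 to 1.82, CDH10 from -2.65 to 0.16 and CDH11 from -3.78 to 0.97; the changed sign of the last 4 came without Day42 replicate 3. For Day42 against Day0, CDH8 was -3.30 and CDH11 -2.48 by voom. With 1 library left out, CDH4 ranged from -0.40 (without Day42 replicate 1) to 1.77, CDH7 from -0.63 (without Day42 replicate 2) to 1.84 and CDH11 from -0.47 (without Day42 replicate 3) to 4.28.

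Whether the labels' replicate numbers pair the samples across days is not settled here. Deviations of same-numbered libraries from their day means correlated at -0.225 to 0.027. Differently numbered libraries were not compared, so these values cannot exclude a pairing. With the replicate number as a block, 0 members were called between Day0 and Day21 in either direction, where 76 of 20156 genes were higher and 33 lower. In that fit 0 members were higher on Day42 than on Day21 (617 of 20156 genes were), and CDH10 no longer passed between Day0 and Day42 (edgeR adjusted p = 0.0803). In the Day42 comparisons, against Day21 and Day0, the median of all genes shifted relative to the main scaling. The shift was 0.35 and 0.43 under limma on log2(FPKM + 1), -0.53 and -0.52 under voom, and -0.66 and -0.64 with the replicate block. It was -0.3 and -0.31 without Day42 replicate 1, and -0.4 and -0.43 without Day42 replicate 2. CDH1, CDH2 and CDH6 against Day0 on Day42 kept direction and call under all 18 alternatives. Of the 30 mean shares of the members, all stayed within 1 SD in TPM, and 11 moved further than that in CPM, among them CDH10 on Day21, from 10.2% to 3.86%. The limit of counting bears on CDH1 after Day0 and on every member listed at 0 to 3 counts. Day42 replicate 3, with no count of CDH4, CDH7 or CDH13, had the most total counts, 69658328, and the fewest genes detected, 10797. The cause was not tested.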
